A study of Mus musculus with 9 samples.

Results

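The 10 genes described here let white blood cells hold on to the vessel wall, and they were followed in aortas of atherosclerosis-prone mice that lack Apoe. They were taken by name from a table of 54532 genes, and all 10 were found and all 10 were tested. On the wall side they are the ligands Vcam1, Icam1 and Icam2 and the selectins Selp and Sele. On the leukocyte side they are the integrin alpha chains Itgal, Itgam, Itgax and Itga4 and the integrin beta chain Itgb2. Every mouse carried the Apoe-/- genotype and entered a regimen of 24 weeks at an age of 6 to 8 weeks. The chow group of 3 aortas came from animals on a chow diet (CD). Another 3 came from animals on a high fat diet (HFD), and the last 3 from animals on a high fat diet that also received intraperitoneal ammonium iron(III) citrate (HFD_IO). The whole aorta was sequenced in bulk, so more cells of a type and more RNA per cell cannot be told apart in any value below. No group received iron on chow, so the iron salt was compared within the high fat diet alone.

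Leukocytes leave the blood in steps. Selectins on activated endothelium catch carbohydrate ligands and slow the cell to a roll. Integrins on the leukocyte then grip immunoglobulin-family ligands on the endothelium and stop it. P-selectin (Selp) is stored in endothelial cells and platelets and is moved quickly to the surface, while E-selectin (Sele) is made by endothelium that has been exposed to inflammatory cytokines. VCAM-1 (Vcam1) binds the integrin made of the Itga4 chain and a beta 1 or beta 7 chain. ICAM-1 (Icam1) is induced by cytokines and ICAM-2 (Icam2) is made by resting endothelium, and both bind beta 2 integrins. The beta 2 chain (Itgb2, CD18) pairs with Itgal (CD11a) on lymphocytes and most other leukocytes, with Itgam (CD11b) on neutrophils, monocytes and macrophages, and with Itgax (CD11c) on dendritic cells and lipid-laden macrophages. In mouse models of atherosclerosis Vcam1 is also made by smooth muscle cells.

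The libraries held 16660963 to 18308450 reads assigned to genes, read back from the deposited values. Levels are in FPKM, that is, fragments divided by gene length in kilobases and by a scaling factor of each library, so levels can be set beside each other between genes. Here that factor was a median-of-ratios size factor and not the read total. One read in a gene of 1 kilobase was worth 0.0541 to 0.0615 FPKM. The 10 genes were covered by 52 reads (Sele in HFD_3) to 13707 reads (Vcam1 in HFD_IO_3) per library. A change is a log2 difference of FPKM + 1, which understates changes of the weakly expressed genes, given with its standard error (SE) and a Benjamini-Hochberg adjusted p from limma over 13883 genes. A change was called when the adjusted p was below 0.05. Apoe itself was listed at 9.73 to 21.9 FPKM over the 9 libraries, which as a sum over the gene does not check the disruption. Libraries are named by their column, whose number the sample labels do not repeat, and no source states whether each aorta came from a separate animal, so the p-values measure the spread between these libraries. HFD_3 stood apart from HFD_1 and HFD_2. It was the lowest HFD library for 7 of the 10 genes and the highest for Itgam, and its 6 adipocyte markers summed to 2593 FPKM, beside 1024 and 1055 in the other two.

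Some members lie beside a gene of the same family: Sele, Selp, Itgam, Itgax and Icam1. Sele (chromosome 1, 164048234 to 164057677) and Selp (164115264 to 164150026) lie on the same strand, 57587 bases apart. Itgam (chromosome 7, 128062640 to 128118491) ends 11056 bases before Itgax (128129547 to 128150657), which is followed by Itgad. Itgal lies on the same chromosome at 127296260 to 127335138. Icam1 (chromosome 9, 21015985 to 21028817) lies 556 bases before Icam4 and 3256 before Icam5. The remaining members are at single places. Vcam1 is on chromosome 3 (116109949 to 116129688, minus strand), Icam2 on chromosome 11 (106377656 to 106388075, minus strand), Itga4 on chromosome 2 (79255426 to 79333123) and Itgb2 on chromosome 10 (77530252 to 77565708). All coordinates are those of the table, which for the 10 genes are identical to GENCODE M21 on GRCm38. Antisense or read-through genes overlap Vcam1, Icam1, Selp, Itgam and Itga4, and strand use is not given in the sources used here. Of these, Cerkl, on the opposite strand at the 3' end of Itga4, reached 0.697 FPKM, and the others reached at most 0.501.

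RefSeq start sites on GRCm38.p6 were at hand for 6 members, and 5 of the windows are shown: those of Icam1, Selp and Sele, whose HFD means were the lowest of the 3 groups, and those of the neighbours Itgam and Itgax, whose HFD_IO means were the highest. Each line is the 250 bases before the start site, 5' to 3' on the plus strand. Capitals mark the letters GAGGAA, the core of sites bound by the myeloid factor PU.1, and GGGCGG, the core of SP1 sites, on either strand. The fixed NF-kB consensus was searched too. The 3 patterns did not overlap each other.
Icam1, chr9:21015690-21015939: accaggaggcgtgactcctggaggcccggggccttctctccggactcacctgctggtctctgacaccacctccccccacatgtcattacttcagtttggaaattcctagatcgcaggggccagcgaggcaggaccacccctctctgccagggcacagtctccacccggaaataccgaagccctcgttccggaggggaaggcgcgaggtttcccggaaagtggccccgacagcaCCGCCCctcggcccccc
Selp, chr1:164115014-164115263: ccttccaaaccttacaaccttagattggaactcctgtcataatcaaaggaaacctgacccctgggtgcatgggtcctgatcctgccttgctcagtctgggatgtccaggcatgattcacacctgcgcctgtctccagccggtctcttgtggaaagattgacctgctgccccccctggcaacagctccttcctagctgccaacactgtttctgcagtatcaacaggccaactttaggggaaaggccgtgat
Sele, chr1:164047984-164048233: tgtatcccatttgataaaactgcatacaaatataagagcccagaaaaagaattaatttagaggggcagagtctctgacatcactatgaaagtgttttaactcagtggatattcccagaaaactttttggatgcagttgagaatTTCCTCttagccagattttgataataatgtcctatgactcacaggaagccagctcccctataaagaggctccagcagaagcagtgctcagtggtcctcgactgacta
Itgam, chr7:128062390-128062639: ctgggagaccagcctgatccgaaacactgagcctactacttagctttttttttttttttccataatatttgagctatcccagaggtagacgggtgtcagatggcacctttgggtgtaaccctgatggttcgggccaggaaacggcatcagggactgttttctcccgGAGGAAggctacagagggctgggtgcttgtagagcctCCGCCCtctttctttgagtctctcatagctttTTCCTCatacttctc
Itgax, chr7:128129300-128129549: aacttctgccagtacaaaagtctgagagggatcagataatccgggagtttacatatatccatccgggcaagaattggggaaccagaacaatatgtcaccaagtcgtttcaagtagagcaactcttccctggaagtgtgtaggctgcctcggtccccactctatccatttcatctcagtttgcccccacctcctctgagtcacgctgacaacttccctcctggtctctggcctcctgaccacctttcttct
Itgam held GAGGAA on the plus strand and again on the minus strand, and GGGCGG on the minus strand. Sele held GAGGAA on the minus strand and Icam1 held GGGCGG on the minus strand. The windows of Selp and Itgax held neither. Of all 32851 windows of this length, 23.3% held GAGGAA, beside 2 of the 6 members, and 32.7% held GGGCGG, beside 3 of the 6, Itga4 among them. An exact match to the NF-kB consensus was in 7.25% of all windows and in 0 of the 6. Sites that differ from the consensus by a base were not searched, so this count does not show that a promoter lacks an NF-kB site. These matches describe letters only, and no binding was measured.

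**Figure D1:**
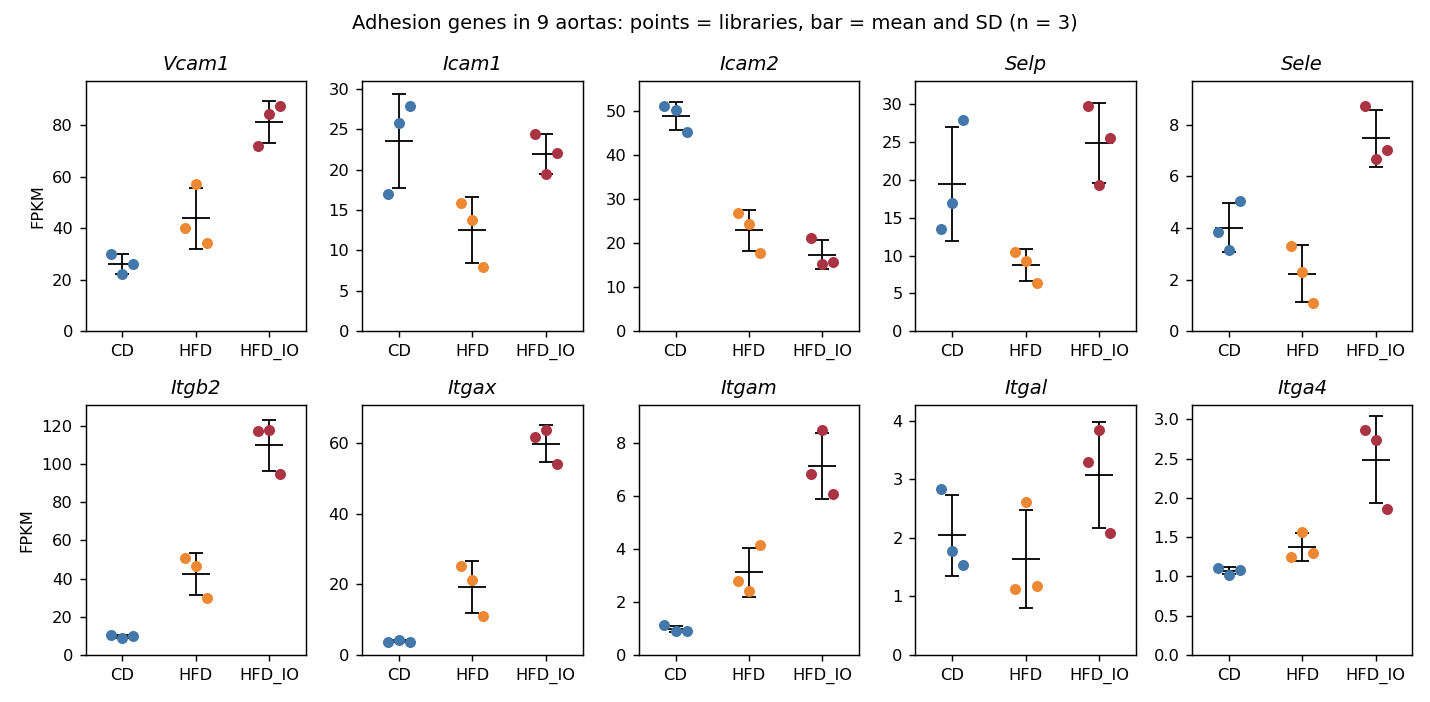
Level of each adhesion gene (vertical axis, FPKM, from 0) in the 3 chow (CD), 3 high fat diet (HFD) and 3 high fat diet with iron (HFD_IO) aortas; points are libraries, bars the mean and SD. Itgb2, Itgax, Itgam and Vcam1 climb from group to group, Icam1, Selp and Sele are lowest in HFD, and Icam2 is highest in CD.

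On the high fat diet Vcam1 and some of the integrin chains rose while 3 endothelial molecules fell. Itgb2 rose 4.32-fold by mean FPKM, Itgax 4.88-fold, Itgam 3.20-fold and Vcam1 1.69-fold. Icam1, Icam2 and Selp fell to 0.532, 0.468 and 0.448 times their chow level. Of the 10 genes 4 rose and 3 fell by the test. Across all tested genes 39.4% were called in HFD against CD, 21.8% higher and 17.6% lower. The libraries of the groups did not overlap for 8 of the 10, 5 higher and 3 lower, beside 50.7% of all genes, 28.2% higher and 22.5% lower. After rescaling to TPM, which gives every library the same summed level per length, the calls over all genes went from 3030 higher and 2440 lower to 1018 and 4948. Leaving out HFD_3 or CD_2 left 5 of the 10 called, 4 up and 1 down without HFD_3 and 3 up and 2 down without CD_2.

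Itgb2, the common chain of the leukocyte integrins, was at 10.3, 9.01 and 10.0055 FPKM in the chow aortas and at 50.6, 46.4 and 29.6 in the HFD aortas. All HFD libraries lay above all chow libraries, and the change was 1.97 (SE 0.19, adjusted p = 0.000417). Itgax was at 3.79, 4.20 and 3.78 FPKM in CD and at 25.2, 21.2 and 11.1 in HFD. The chow values were within a narrow band and the lowest HFD value was well above it (1.96, SE 0.24, adjusted p = 0.000914). Itgam was at 1.13, 0.891 and 0.918 FPKM in CD and at 2.81, 2.40 and 4.16 in HFD (1.04, SE 0.17, adjusted p = 0.00239). In HFD_3 Itgam was the highest of the HFD values while Itgax and Itgb2 were the lowest, so the order of the libraries differed between these chains.

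Itgal and Itga4 did not pass the test on the diet. Itgal was at 2.83, 1.77 and 1.54 FPKM in CD and 1.13, 2.61 and 1.17 in HFD, with a 95% interval of the log2 difference from -0.81 to 0.35 (adjusted p = 0.503). With array weights the difference was 0.08, and without CD_1 and HFD_3 it was 0.07. The groups overlapped, and each had 1 library above the other 2, CD_1 and HFD_2. The same libraries were highest in their groups for the summed T cell markers, at 37.9 FPKM in CD_1 beside 15.5 and 6.74, and 36.6 in HFD_2 beside 11.8 and 7.76. Their part in the Itgal values was not tested. Itga4 was at 1.11, 1.02 and 1.08 FPKM in CD and 1.25, 1.57 and 1.30 in HFD (0.19, interval -0.12 to 0.51, adjusted p = 0.289). The HFD values were all higher than chow, 1.28-fold by mean FPKM. After a trend of expression on gene length was taken out per library the change was 0.51 (adjusted p = 0.0337), while after rescaling to TPM it was -0.03.

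Vcam1 was at 29.9, 22.2 and 25.97 FPKM in CD and 40.2, 57.3 and 34.3 in HFD. The groups did not overlap, and the change was 0.71 (SE 0.19, adjusted p = 0.0172). The call was lost without CD_2 (adjusted p = 0.0641), after quantile normalization (0.46, adjusted p = 0.0856) and after rescaling to TPM (0.33, adjusted p = 0.216). TPM rescaling moved the median of all genes to -0.30 in this comparison. The 7 smooth muscle markers summed to 5338 to 5958 FPKM in CD and 6871 to 8005 in HFD, with a median change of 0.18. Most of that sum was Acta2 (mean 4366 and 5778 FPKM, adjusted p = 0.175), and Myocd differed by -0.83 (adjusted p = 0.0739). The part of smooth muscle in the Vcam1 change was not tested.

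Icam2 was at 51.2, 50.3 and 45.4 FPKM in CD and 26.8, 24.3 and 17.7 in HFD, and no HFD library came near the chow range (-1.08, SE 0.17, adjusted p = 0.00209). Icam1 was at 17.0, 25.8 and 27.9 FPKM in CD and 15.9, 13.8 and 7.93 in HFD. Its lowest chow library, CD_1, was close to HFD_1, and the change was -0.88 (SE 0.25, adjusted p = 0.0232). That call was lost without CD_2 (adjusted p = 0.0741), CD_3 (0.0816) or HFD_3 (0.0568), and with no filter on low values (0.0567).

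Selp was at 13.4, 17.0 and 27.9 FPKM in CD and at 10.5, 9.24 and 6.39 in HFD. The chow libraries were the more spread group, and all lay above the HFD libraries (-1.04, SE 0.27, adjusted p = 0.0161, and 0.0546 without HFD_3). Sele was at 3.85, 3.15 and 5.04 FPKM in CD and 3.32, 2.28 and 1.10 in HFD. The groups overlapped through HFD_1, and the change of -0.68 (interval -1.24 to -0.11) did not pass the test (adjusted p = 0.057), though it did without HFD_1 (-0.92, adjusted p = 0.0178), after rescaling to TPM (-1.18, adjusted p = 0.0225), with array weights (0.0253) and after removal of the length trend (0.0346).

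The markers of the cells that carry these molecules moved in the same comparison. Of 10 macrophage markers 8 rose, and their sum went from 596 to 673 FPKM in CD to 2848 to 4764 in HFD. Of 6 pan-leukocyte markers 5 rose, with sums of 59.7 to 87.7 FPKM in CD and 149 to 308 in HFD. The 8 neutrophil markers summed to 10.3 to 46.9 FPKM in CD and 24.7 to 28.5 in HFD, and Ly6g, their defining gene, stayed below 1 FPKM in all 9 libraries. The 8 T cell markers had a median change of -0.06. Of 14 endothelial markers 11 fell, with sums of 602 to 823 FPKM in CD and 212 to 387 in HFD. Of 6 adipocyte markers 3 rose, with sums of 403 to 920 FPKM in CD and 1024 to 2593 in HFD. Lep, among these 3, met the filter on low values only because of the HFD group, so its call is no independent support. Most of the adipocyte sum in every library was Cfd, which was not called on the diet (0.87, adjusted p = 0.38). Ucp1, the uncoupling protein of brown fat, went from a mean of 56.1 to 239.6 FPKM. The part of these cells in the changes of the 10 genes was not tested.

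With iron added to the high fat diet, 8 of the 10 genes rose and none fell. Selectins rose 2.85-fold (Selp) and 3.35-fold (Sele) by mean FPKM, Itgax 3.12-fold, Itgb2 2.60-fold, Itgam 2.28-fold, Vcam1 1.85-fold, Itga4 1.81-fold and Icam1 1.75-fold. Across all genes 28.6% were called in HFD_IO against HFD, 14.1% higher and 14.5% lower. The same 8 had groups that did not overlap, beside 48.5% of all genes, 24.1% higher and 24.4% lower. After rescaling to TPM the calls over all genes went from 1956 higher and 2013 lower to 2373 and 1160. Icam2 and Itgal did not pass the test. The count was 6 of 10 without HFD_IO_1 or HFD_IO_2, and 8 with CD_1 and HFD_3 both left out, where Icam2, lower, was called and Itga4 was not.

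**Figure D2:**
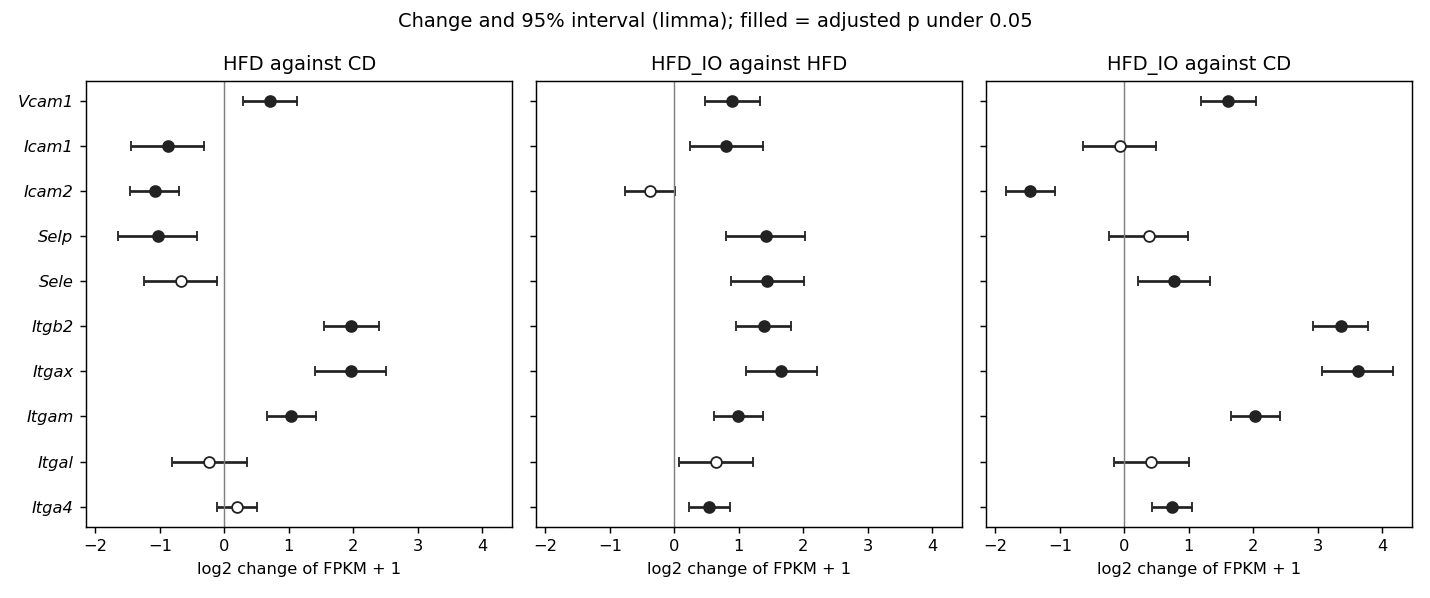
Log2 change of FPKM + 1 (horizontal axis) of each adhesion gene in the 3 comparisons, with the 95% interval; filled points have an adjusted p below 0.05 in limma. Icam1 and Selp are filled on opposite sides of 0 in the first and second panels, and Icam2 is on the left in every panel.

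Both selectins rose with iron. Selp reached 29.8, 19.3 and 25.5 FPKM in the HFD_IO aortas, and the lowest of these was above the highest HFD value of 10.5 (1.42, SE 0.27, adjusted p = 0.00683). Sele reached 8.73, 6.68 and 7.02 FPKM, against at most 3.32 in HFD (1.44, SE 0.25, adjusted p = 0.00455). Neither call was lost in any of the 20 alternatives run. Platelets and megakaryocytes also store P-selectin, and their 6 markers summed to 59.7 to 89.8 FPKM in HFD and 47.8 to 52.7 in HFD_IO, with a median change of 0.18. Most of that sum was Pf4, which had the lowest change of the 5 tested markers. Their changes ranged from -0.55 to 0.53, and none was called. The part of platelets in the Selp change was not tested.

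Vcam1 reached 72.1, 84.4 and 87.5 FPKM with iron, all above the highest HFD value of 57.3 (0.90, SE 0.19, adjusted p = 0.00952). Of 7 smooth muscle markers 5 fell, and their sum was 2460 to 4205 FPKM in HFD_IO. The part of smooth muscle in the Vcam1 change with iron was not tested. Icam1 was at 24.4, 19.4 and 22.1 FPKM, above all HFD libraries (0.81, SE 0.25, adjusted p = 0.041). The Icam1 call was the weakest of the 8. It was lost without CD_2 (adjusted p = 0.0554), HFD_2 (0.0632), HFD_3 (0.112), HFD_IO_1 (0.116), HFD_IO_2 (0.0686) or HFD_IO_3 (0.0923), and with no filter (0.0999).

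Icam2 did not share the rise. It was at 21.2, 15.2 and 15.7 FPKM in HFD_IO, overlapping HFD through HFD_3 (-0.38, interval -0.76 to 0.01, adjusted p = 0.127). Without HFD_3 the change was -0.54 (adjusted p = 0.0463). Icam2 was therefore the 1 endothelial gene of the 5 that had its lowest mean in the iron group. The ratio of Icam2 to Icam1 FPKM was 1.63 to 3.02 in CD, 1.68 to 2.24 in HFD and 0.711 to 0.869 in HFD_IO, so Icam2 was the more abundant of the pair in all 6 libraries without iron and the less abundant in all 3 with it.

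On the leukocyte side Itgb2 reached 117, 118 and 94.5 FPKM in HFD_IO (1.39, SE 0.19, adjusted p = 0.00203). Itgax reached 61.7, 63.7 and 53.9 FPKM (1.66, SE 0.24, adjusted p = 0.00254) and Itgam 6.82, 8.52 and 6.09 FPKM (0.99, SE 0.17, adjusted p = 0.00441). Each of the 3 lay above every HFD library, and none of the 3 calls was lost in the 20 alternatives. Itga4 was at 2.87, 2.74 and 1.86 FPKM (0.55, SE 0.14, adjusted p = 0.0195). Its groups did not overlap, but the call was lost without HFD_3 (adjusted p = 0.0617), HFD_IO_1 (0.0693) or HFD_IO_2 (0.0695), without CD_1 and HFD_3 together (0.0545), with no filter (0.057) and after removal of the length trend (0.29, adjusted p = 0.201). Itgal was at 3.29, 3.85 and 2.09 FPKM and overlapped HFD through HFD_2 (0.65, interval 0.07 to 1.23, adjusted p = 0.0896). Without HFD_2 its change was 0.90 (adjusted p = 0.0333).

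Beside these values, 9 of 10 macrophage markers rose with iron, with sums of 4584 to 7815 FPKM in HFD_IO. The sums overlapped those of HFD, which reached 4764 in HFD_1. Most of the sum in both groups was Lyz2 (mean 2721 FPKM in HFD and 3743 in HFD_IO), the marker not called with iron (0.47, adjusted p = 0.33). Of 6 tested neutrophil markers 2 rose, with sums of 36.8 to 109 FPKM over the 8 listed. Mmp8, among these 2, met the filter on low values only because of the iron group, so its call is no independent support. The 8 T cell markers had a median change of -0.10, with sums of 7.10 to 22.6 FPKM. Of 5 tested dendritic cell markers 1 rose and 1 fell, and the dendritic genes Flt3 and Xcr1 stayed below 1 FPKM in all libraries. Of 14 endothelial markers 6 rose and 0 fell, with sums of 429 to 480 FPKM, which is above HFD and below CD. Robo4, among these 6, met the filter on low values only because of the iron group, so its call is no independent support. Of 6 adipocyte markers 3 fell, with sums of 224 to 1491 FPKM in HFD_IO and a mean of 41.5 FPKM for Ucp1. The same 3 adipocyte markers were called in both comparisons, in the opposite direction to Icam1 and Selp, and the rest were called in neither. Lep, among these 3, met the filter on low values only because of the HFD group, so its calls are no independent support. The part of these cells in the changes of the 10 genes was not tested.

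Set directly against chow, the iron-treated aortas had 6 of the 10 genes higher and 1 lower, beside 32.5% of all genes called, 17.5% higher and 15% lower. The same 7 had groups that did not overlap, beside 47% of all genes, 24.3% higher and 22.7% lower. After rescaling to TPM the calls over all genes went from 2427 higher and 2089 lower to 1528 and 3800. Itgax was 15.2-fold higher (3.62, SE 0.24, adjusted p = 2.15e-05), Itgb2 11.3-fold (3.36, SE 0.19, adjusted p = 1.09e-05), Itgam 7.30-fold (2.03, SE 0.17, adjusted p = 5.71e-05), Vcam1 3.12-fold (1.61, SE 0.19, adjusted p = 0.0003) and Itga4 2.32-fold (0.74, SE 0.14, adjusted p = 0.00351). Icam2 was 0.355 times its chow level (-1.46, SE 0.17, adjusted p = 0.000295). The 3 comparisons share groups, so these values restate the steps above and add no replicate.

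Icam1 and Selp were close to chow in the iron group, within wide limits. For Icam1 the difference was -0.07 (interval -0.64 to 0.50, adjusted p = 0.854, and from 0.01 to 0.06 without CD_2, CD_3 or HFD_IO_2), and for Selp 0.38 (interval -0.23 to 0.99, adjusted p = 0.318). These intervals do not show that the levels are alike. Sele exceeded chow, with all 3 iron libraries above all chow libraries (0.77, SE 0.25, adjusted p = 0.042). That call was lost without CD_1 (adjusted p = 0.0823), CD_2 (0.131), HFD_2 (0.0578), HFD_IO_1 (0.121), HFD_IO_2 (0.0767) or HFD_IO_3 (0.0784), at both smaller pseudocounts (0.0751 and 0.0835), with no filter (0.0999), after rescaling to TPM (0.173) and after removal of the length trend (0.0587). Itgal differed from chow by 0.42 (95% interval from -0.16, adjusted p = 0.249), and with array weights by 0.63 (0.0363).

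The order of the 10 genes by mean FPKM changed between groups. In CD the wall genes led, with Icam2 at 49.0 ± 3.12 (SD, n = 3), then Vcam1 at 26.03 ± 3.83, Icam1 at 23.6 ± 5.80 and Selp at 19.4 ± 7.53, and the libraries of the last 3 overlapped from each gene to the next. Itgb2 came next at 9.76 ± 0.662, and Itgam was last at 0.978 ± 0.128, overlapping Itga4 at 1.07 ± 0.0446. In HFD Vcam1 (43.9 ± 11.9) and Itgb2 (42.2 ± 11.1) led and overlapped. In HFD_IO Itgb2 led at 109.9 ± 13.3, followed without overlap by Vcam1 at 81.4 ± 8.18 and Itgax at 59.8 ± 5.15. Icam2, which led in chow, came behind Icam1 at 17.4 ± 3.32, and Itga4 was last at 2.49 ± 0.551.

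The beta 2 chain pairs with Itgal, Itgam, Itgax or Itgad, and the share each holds in the summed alpha FPKM of a library describes which integrin the leukocyte transcripts encode. Itgax held 48.9%, 61.1% and 60.6% of the sum in CD, 85.8%, 80.7% and 67.3% in HFD, and 85.8%, 83.7% and 86.8% in HFD_IO. Itgal held 24.6% to 36.5% in CD, 3.85% to 9.93% in HFD and 3.36% to 5.06% in HFD_IO. Itgam held 13.0% to 14.7% in CD, 9.14% to 25.2% in HFD and 9.49% to 11.2% in HFD_IO, with the 25.2% in HFD_3. Itgad had at most 18 reads in a library and held at most 0.777%. The alpha sum went from 6.24 to 7.75 FPKM in CD to 62.2 to 76.1 in HFD_IO, and the ratio of Itgb2 to that sum stayed between 1.31 and 1.80 in all 9 libraries.

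**Figure D3:**
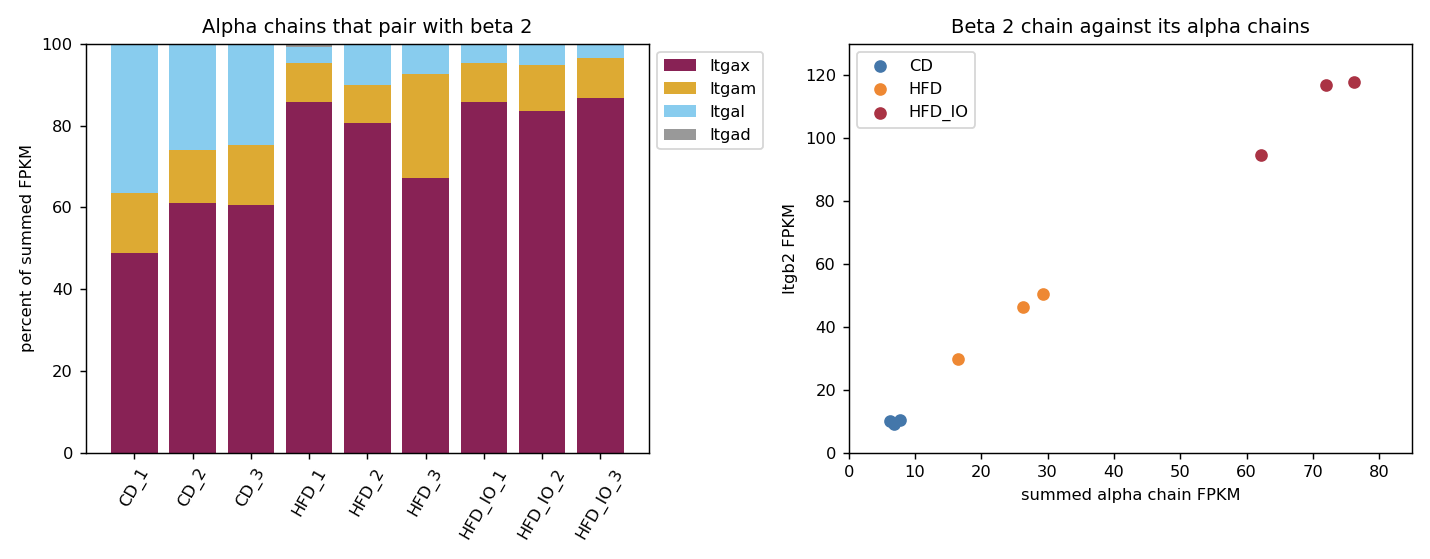
Left, share of each alpha chain (percent, stacked to 100) in the summed FPKM of Itgal, Itgam, Itgax and Itgad in each library; right, Itgb2 FPKM against that sum, 1 point per library. Itgax takes 48.9% to 61.1% in CD and 83.7% to 86.8% in HFD_IO, and Itgb2 climbs with the summed alpha chains.

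Whether an alpha chain changed by the same amount as Itgb2 was tested by subtracting the log2 value of Itgb2 from every gene in each library and repeating the fit. The spread of the reference gene enters every ratio, which makes limma's pooled variance look better known than it is, so a value without variance pooling is given too. Relative to Itgb2, 97.9% of all genes were called in HFD against CD, 93.8% in HFD_IO against HFD and 99.2% in HFD_IO against CD. Itgax was not called relative to Itgb2, with differences of -0.01 (interval -0.30 to 0.28 without pooling, adjusted p = 0.935) on the diet and 0.27 (interval -0.02 to 0.56, adjusted p = 0.065) with iron. These intervals do not show equal changes. The ratio of Itgax to Itgb2 in FPKM was 0.370 to 0.466 in CD and 0.375 to 0.498 in HFD. In HFD_IO it was 0.527 to 0.571, above every library without iron. Itgal fell behind Itgb2 by -2.20 on the diet (adjusted p = 2.08e-08, and 0.000524 without pooling). With iron Itgal fell behind by -0.74 (0.0163, and 0.04), a call lost without HFD_2 (0.0958) or HFD_IO_3 (0.0558) and at a pseudocount of 0.1 (-0.48, 0.206). Itgam fell behind on the diet by -0.93 (0.00313, and 0.0345), but the call was lost at a pseudocount of 0.1 (-0.52, 0.147), and its ratio to Itgb2 in FPKM overlapped between CD (0.0918 to 0.110) and HFD (0.0518 to 0.141).

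Against Ptprc, which encodes the pan-leukocyte surface protein CD45, the integrins divided. Ptprc was at 1.13 to 2.89 FPKM in CD, 1.54 to 4.40 in HFD and 6.95 to 10.5 in HFD_IO. In HFD_IO against CD, where 93% of all genes were called relative to Ptprc, Itgb2 and Itgax rose by 1.62 and 1.88 more than Ptprc (adjusted p = 0.000316 and 3.12e-05, and 0.0073 for each without pooling). Itgal fell behind Ptprc by -1.32 (adjusted p = 0.00271, and 0.0073 without pooling) and Itga4 did so too (unpooled interval -1.77 to -0.23, adjusted p = 0.0256, and 0.0236). The Itga4 call was lost without CD_2 (0.0743), CD_3 (0.116), HFD_IO_2 (0.0828) or HFD_IO_3 (0.0649), and at a pseudocount of 0.1 (0.101). In HFD_IO against HFD, with 84.7% of genes called, none of the 5 integrin genes was called relative to Ptprc, although Itgal was without pooling (-0.68, adjusted p = 0.0231) and Itga4 was without HFD_2 (-0.99, 0.0284), and the difference for Itgb2 was 0.06 (interval -0.58 to 0.70 without pooling). In HFD against CD, with 7.14% of genes called, Itgb2 and Itgax were called relative to Ptprc (1.56 and 1.55, adjusted p = 0.0101 and 0.00923), but not without pooling (0.165 and 0.198), not at a pseudocount of 0.1 (0.104 and 0.0632), not without CD_2 (0.118 and 0.0804) or HFD_1 (0.126 and 0.158), and not against the mean of 6 pan-leukocyte genes (0.52 and 0.51, adjusted p = 0.225 and 0.226). Against that mean, with 86.6% of genes called, Itgal and Itga4 were called in their place, both lower (-1.68 and -1.26, adjusted p = 0.000162 and 0.00456). Icam1, Icam2 and Selp were called lower relative to Ptprc on the diet (-1.29, -1.49 and -1.45, adjusted p = 0.0412, 0.0145 and 0.017), but not without pooling (0.318, 0.235 and 0.337).

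On the wall side the reference was Cdh5, VE-cadherin, the adhesion molecule of endothelial junctions. Cdh5 was at 34.4, 57.8 and 64.2 FPKM in CD, 24.7, 18.4 and 12.0 in HFD, and 55.3, 31.6 and 34.4 in HFD_IO. The ratio of Vcam1 to Cdh5 FPKM was 0.385 to 0.870 in CD, 1.63 to 3.12 in HFD and 1.30 to 2.67 in HFD_IO. Vcam1 rose relative to Cdh5 on the diet by 2.17 (adjusted p = 2.56e-05, and 0.0185 without pooling), where 87.2% of all genes were called. Icam1, Icam2, Selp and Sele differed from Cdh5 on the diet by 0.58, 0.38, 0.43 and 0.79, none of them past the test (adjusted p = 0.205, 0.412, 0.351 and 0.0817). Without pooling the Icam1 and Sele differences did pass (0.021 and 0.0311), and without CD_1 the Sele difference passed as well (1.04, 0.0224). Over the libraries the Icam1 ratio was 0.434 to 0.494 in CD and 0.644 to 0.752 in HFD, with no overlap.

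With iron the libraries had higher ratios of both selectins to Cdh5 and lower ratios of Icam2. Selp was at 0.426 to 0.532 of Cdh5 in HFD and 0.538 to 0.741 in HFD_IO, and Sele at 0.0915 to 0.134 and 0.158 to 0.211, so neither pair of groups overlapped. The differences from Cdh5 of 0.31 and 0.33 did not pass the test (adjusted p = 0.518 and 0.474, where 64.4% of genes were called). Against the mean of 14 endothelial markers they were 0.88 and 0.91 and did pass (0.0108 and 0.00713). Icam2 fell from 1.08 to 1.48 of Cdh5 in HFD to 0.383 to 0.481 in HFD_IO (-1.49, adjusted p = 0.00538, and 0.0628 without pooling). In HFD_IO against CD, where 7.88% of genes were called, Vcam1 passed relative to Cdh5 (1.96, adjusted p = 0.000686), but not without pooling (0.1155). Sele passed without CD_1 (1.37, 0.0216). Against the mean of 14 endothelial markers, with 30.1% of genes called, Sele and Selp were higher (1.23 and 0.85, adjusted p = 0.000423 and 0.0126) and Icam2 was lower (-0.99, 0.00374).

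**Figure D4:**
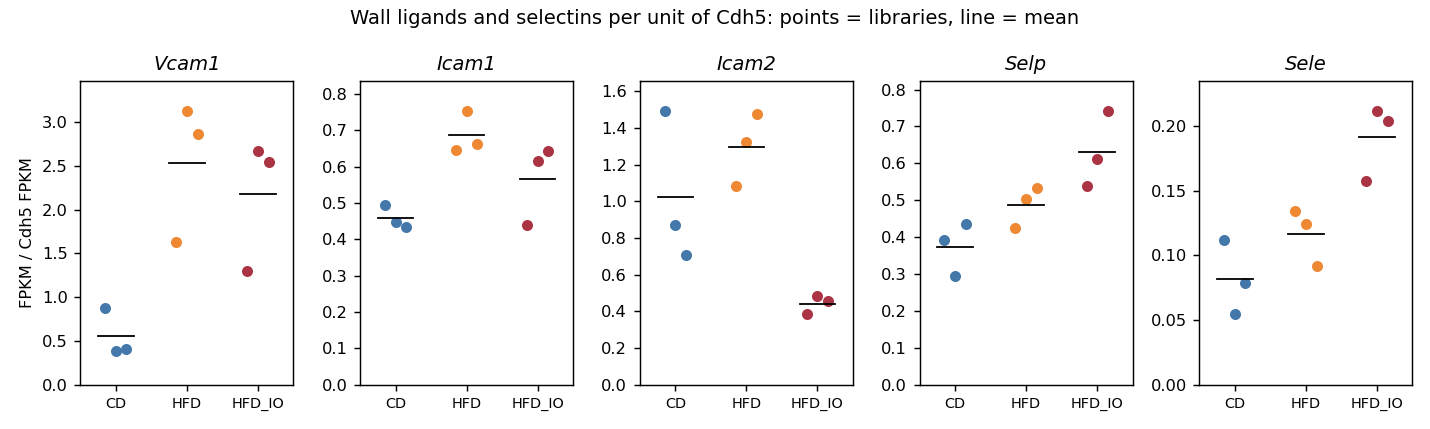
FPKM of each wall gene divided by the FPKM of Cdh5 in the same library (vertical axis, from 0); points are libraries and lines are group means of 3. Vcam1 is higher in both high fat diet groups than in CD, Selp and Sele are highest in HFD_IO, and Icam2 is lowest in HFD_IO at 0.383 to 0.481.

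Other genes of the adhesion cascade were described from lists. Their counts stand beside 39.4% of all genes called on the diet, 28.6% with iron and 32.5% against chow. A list called at about these shares moved no more often than genes at large. Of 18 tested genes that activate integrins or signal behind them, 10 rose and 1 fell on the diet, with a median of 0.45 beside 0.058 over all genes. With iron 10 rose and 1 fell (median 0.70, beside -4.2e-05), and against chow 13 rose and 1 fell (median 1.21, beside -0.012). Fermt3, the kindlin of blood cells that switches beta 2 integrins on, had means of 9.31, 19.1 and 39.4 FPKM in the chow, HFD and HFD_IO aortas (1.04 with iron, adjusted p = 0.00649). The Src-family kinases Lyn and Fgr, which signal from beta 2 integrins in myeloid cells, rose on the diet by 1.22 and 1.19, and Rac2, a GTPase of blood cells, rose by 1.20. Fyb, an adaptor between receptors and integrin activation, was at 3.26, 2.86 and 13.3 FPKM in the 3 groups and rose with iron by 1.91 (SE 0.18, adjusted p = 0.00054). Vav1, an exchange factor for Rac, rose with iron by 1.18.

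Among 10 tested integrin subunits outside the 10 genes, 4 rose and 1 fell on the diet (median 0.29), 1 rose and 1 fell with iron (median -0.03), and 2 rose and 1 fell against chow (median 0.16). Itga6, a laminin receptor chain, climbed from 1.31 to 3.58 and 9.46 FPKM (0.97 on the diet and 1.19 with iron). Itgb1, the partner of Itga4 in binding VCAM-1 and a chain of many cell types, rose from 274 to 450 FPKM on the diet (0.72, adjusted p = 0.00479) and fell to 312 with iron (-0.53, adjusted p = 0.0235). Itgb7, the other partner of Itga4, was at 2.27 ± 1.15, 5.76 ± 3.24 and 4.40 ± 2.30 FPKM and was not called in any comparison. Itgav rose and Itgb3 fell on the diet, by 0.68 and -0.66, and Itga9 was lower in HFD_IO than in CD by -0.76.

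Of 10 tested selectin ligands and the enzymes that build their sugars, 2 rose and 2 fell on the diet (median 0.07), 3 rose and 1 fell with iron (median 0.14), and 3 rose and 2 fell against chow (median 0.05). Selplg, the leukocyte ligand of P-selectin, was at 4.08, 11.3 and 19.6 FPKM and rose in both steps (1.29, adjusted p = 0.00182, and 0.73, adjusted p = 0.0241). Gcnt1, an enzyme that branches the sugars selectins bind, fell on the diet by -1.23 and rose with iron by 0.74. Podxl, a sialomucin of endothelium, fell on the diet by -0.92. Tpst2 and Tpst1, which sulfate tyrosines of P-selectin's ligand, moved in opposite directions against chow, by 0.60 and -0.44, and B4galt1 was higher by 0.36. The mucosal ligand Madcam1 and the fucosyltransferase Fut7 stayed below 1 FPKM in all libraries.

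Of 10 tested junction and transmigration molecules 2 rose and 5 fell on the diet (median -0.20), 5 rose and 2 fell with iron (median 0.44), and 1 rose and 3 fell against chow (median -0.30). Pecam1 had means of 264, 93.9 and 122 FPKM in the chow, HFD and HFD_IO aortas, and in the iron group it stayed below chow (-1.10, adjusted p = 0.00451), as Icam2 did. Esam fell on the diet by -0.85. Jam3, a junction molecule that binds Itgam, rose on the diet by 0.77 and fell with iron by -1.20. Mcam, which smooth muscle and endothelium carry, was at 173, 180 and 85.9 FPKM and fell with iron by -1.08, while Alcam, a ligand of CD6 on T cells, rose with iron by 0.73. Of the neighbours of Icam1, Icam4 had no read in any library, where 3 reads would be at most 0.166 FPKM, and Icam5 stayed at or below 0.304 FPKM.

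Of 12 cytokine, receptor and NF-kB pathway genes linked to the induction of endothelial adhesion molecules, 3 rose and 1 fell on the diet (median 0.11), 6 rose and 1 fell with iron (median 0.37), and 6 rose and 0 fell against chow (median 0.36). Tnf, the cytokine that induces Vcam1, Icam1 and Sele in endothelium, was at 0.663, 0.208 and 0.536 FPKM in CD, 0.593, 0.620 and 0.225 in HFD, and 1.68, 2.66 and 1.73 in HFD_IO. The iron group lay above both others, which overlapped, and its log2 difference from HFD was 1.03. Tnf was below 1 FPKM in every CD and HFD library and met the filter on low values through the iron group alone, so its call, which is among the 6 with iron and the 6 against chow, is no independent support for the difference. Il1b was at 0.815 ± 0.564, 0.957 ± 0.449 and 3.07 ± 1.15 FPKM, and its log2 difference with iron was 1.04. Outside the iron group it reached 1 FPKM only in CD_1 (1.45) and HFD_1 (1.47), so it too met the filter only because of the iron group. Its call, also among the 6 with iron and the 6 against chow, is likewise no independent support. The receptor genes Tnfrsf1b and Il4ra rose with iron by 1.63 and 1.43. Nfkbia, the inhibitor of NF-kB, was among the 3 that rose on the diet and was the 1 that fell with iron. Its level went from 44.2 ± 1.75 FPKM in CD to 77.8 ± 1.91 in HFD and back to 44.3 ± 1.69 in HFD_IO (0.80 on the diet, adjusted p = 0.000566, and -0.80 with iron, adjusted p = 0.00098). Its groups are narrow, and HFD lay apart from both others.

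Of 5 proteases and linkers, Adam10 and Adam17, which shed VCAM-1 and ICAM-1 from cell surfaces, and Msn, which ties adhesion receptors to actin, rose with iron by 0.65, 0.42 and 0.54, and none of the 5 fell (median 0.42). On the diet 0 rose and 1, Rdx, fell (median -0.06), and against chow 2 rose and 1 fell (median 0.40).

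The genes whose levels over the 9 libraries were most like those of 3 members are given as a description, since the libraries form 3 groups and any gene with the same group order scores high. For Itgb2 these were Anxa4, Cd68 and Gusb, with Pearson r of 0.998, 0.998 and 0.997 on log2(FPKM + 1). Cd68, a lysosomal glycoprotein of macrophages, had means of 22.8, 128 and 380 FPKM in the same order of groups. For Vcam1 they were Gpr183, Smyd3 and Plxdc1 (r of 0.990, 0.984 and 0.984), with Gpr183, an oxysterol receptor of immune cells, at 0.841, 1.75 and 3.72 FPKM. For Icam2 they were AU021092, Cldn15 and Rad52 (r of 0.980, 0.978 and 0.976).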

How the data were processed

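RNA from 9 Apoe-/- mouse aortas was sequenced, after Qiagen column purification and NEBNext library preparation per the labels' protocols. The submitters' processing notes name HISAT2 and hg38, a human build, yet the identifiers are mouse, and GENCODE M21 holds 54409 of the 54532 with 98.3% at identical GRCm38 coordinates. How reads were counted is not stated in any source consulted. Deposited values are FPKM per gene. Multiplied by gene length, 100% of the values above 0 were whole multiples of 1 step within 0.05 of a read, so reads were recovered, and the authors' scaling equalled median-of-ratios size factors.

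The analysis kept 13883 genes that reached 1 FPKM in 3 or more libraries. Values of log2(FPKM + 1) were fitted with 3 group means in limma 3.58.1 (R 4.3.3, trend option), with Benjamini-Hochberg adjustment per comparison. The fit was repeated after subtracting Itgb2, Ptprc or Cdh5. Calculations were tested on simulated data. Members, lists and tests were chosen with earlier results of these data known. Genes named beside the members are up to 4 per adhesion list with the largest called changes, the 3 most like Itgb2, Vcam1 and Icam2, both references and family neighbours. Itgb7, Apoe, Acta2, Myocd, Lyz2, Cfd, Pf4, Ucp1, Lep, Mmp8, Robo4, Ly6g, Flt3, Xcr1, Madcam1 and Fut7 were named outside that rule, after their values were seen. Some genes that the rule names are not reported here. Alternatives changed the pseudocount, filter, scaling, weights, reference and libraries. Leaving out CD_1 with HFD_3, and dropping the variance pooling, were chosen after seeing the data.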

Additional observations from a re-analysis of the deposited data

How the results depend on the processing

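No paired analysis was possible because the labels number the aortas from 1 to 9 across the groups, so no number is shared between groups. Leaving out 1 library at a time gave 5 to 8 called members in HFD against CD, 6 to 8 in HFD_IO against HFD and 6 to 7 in HFD_IO against CD. Over all genes the same step gave 3712 to 6160, 2275 to 4944 and 3045 to 5036 calls.

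Relative to Itgb2, 2 members were called on the diet and 1 with iron. A pseudocount of 0.1 left 1 and 0 (with 94.9% and 86.4% of all genes called), and single libraries gave 0 to 1 with iron (90.6% to 94.2%). Relative to Ptprc on the diet 5 members were called, Itgax and Itgb2 higher and Icam1, Icam2 and Selp lower. A pseudocount of 0.1 left 1 (6.45% of genes), no variance pooling 0 (0.036%) and single libraries 0 to 6 (1.99% to 24%). Relative to Ptprc with iron 1 was called, no pooling gave 2 (71.9%) and single libraries 1 to 2 (58.4% to 92.1%), and against chow, with 8 called, single libraries gave 5 to 8 (87.1% to 94.4%). Relative to Cdh5 1 was called in each comparison. No pooling gave 3 on the diet (81.5%), 0 with iron (0.0216%) and 0 against chow (2.64%), the marker mean 3 with iron (39.3%) and 4 against chow (30.1%), and single libraries 1 to 2 on the diet (69.1% to 92.5%) and against chow (3.88% to 12.3%).

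The signs of Vcam1, Icam1, Icam2, Selp and Sele relative to Ptprc were not followed through the alternatives. Among the differences that were followed, signs turned only where the test had not been passed. Itgal on the diet was 0.082 with array weights and 0.066 without CD_1 and HFD_3, and Itga4 was -0.032 after TPM rescaling. Icam1 in HFD_IO against CD was above 0 without CD_2, CD_3 or HFD_IO_2 and ranged from -0.28 to 0.060 over single libraries. Relative to Itgb2, Itgax on the diet was 0.11 at a pseudocount of 0.1 and from -0.089 to 0.091 over single libraries, and Itgam with iron from -0.61 to 0.0082. Relative to Ptprc, Itgam with iron was from -0.73 to 0.12 over single libraries, and against the marker mean -0.41 on the diet and -0.47 against chow. Itgb2 with iron was -0.20 at a pseudocount of 0.1 and from -0.12 to 0.19 over single libraries. Relative to the endothelial marker mean in place of Cdh5, Icam2 and Selp on the diet were -0.074 and -0.029, and Vcam1 and Icam1 with iron were 0.36 and 0.27. Vcam1 with iron relative to Cdh5 was from -0.49 to 0.12 over single libraries. The cause was not tested. Depth limits Sele most, with 52 reads in 1 library.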

Other observations

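HFD_2 held the highest levels of several lymphocyte genes among the 9 libraries. Its 5 B cell markers summed to 95.97 FPKM, beside at most 14.8 elsewhere. In the same library Itgb7, the beta partner of Itga4 in gut-homing lymphocytes, was at 9.50 FPKM.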
